A study of Mus musculus with 12 samples.

Results

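Aminoacyl-tRNA synthetase genes were followed in bone marrow-derived macrophages (BMDMs) of WT and Nos2-/- mice before and after stimulation with LPS and IFNγ. The set was defined by gene name as 20 cytosolic and 16 mitochondrial enzymes, 36 in all, and 35 of them were measured among the 18193 genes of the arrays. The missing member was Dars, the cytosolic aspartate enzyme, for which the annotation lists no probe set of its own, so 19 cytosolic and 16 mitochondrial genes were analysed. Each gene was represented by the probe set that names only that gene and had the highest mean signal over all arrays. The WT mice were C57BL6, and the Nos2-/- mice carry a targeted germline mutation (B6.129P2-Nos2tm1Lau/J), so that every cell lacks the inducible NO synthase, iNOS. Mice of the same age and sex were used for each experiment, and BMDMs of both genotypes were grown with M-CSF. Stimulated cells were exposed for 8 h to a mixture of LPS (100 ng/mL) with IFNγ (50 ng/mL). The other cells received PBS as vehicle and are called untreated here, because their labels place them before stimulation. There were 3 biological replicates in each of the 4 groups, which combine the genotypes with the 2 treatments, and each replicate had its own Affymetrix array, 12 in all. Whether a replicate pooled several mice is not given in the sources used here, and the number of arrays limits the precision.

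Aminoacyl-tRNA synthetases attach each amino acid to its tRNA and so supply the ribosome with its substrates. Both the cytosol and the mitochondrion need charged tRNAs. For most amino acids the enzymes of the 2 compartments are encoded by different nuclear genes, with mitochondrial enzymes marked by a trailing 2 in their symbol. Glycyl- and lysyl-tRNA synthetase (Gars and Kars) are exceptions, because 1 gene makes the enzyme of both compartments. The enzymes fall into class I and class II by the fold of their catalytic domain, and several cytosolic enzymes sit together with scaffold proteins in the multisynthetase complex. Some synthetase genes have roles in immune and stress signaling. Wars is a long-known interferon-induced gene, and several cytosolic genes are targets of ATF4, the transcription factor of the integrated stress response.

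Array medians were 5.14 to 5.21 (log2), and replicate arrays correlated at 0.996 or above. Nos2 itself had a log2 signal of 5.45, 5.40 and 5.65 in untreated WT arrays, 9.73, 9.81 and 9.64 in stimulated WT, 5.15, 5.41 and 5.36 in untreated Nos2-/-, and 7.74, 7.45 and 7.88 in stimulated Nos2-/-. Where this probe set lies relative to the altered part of the gene is not known, so its signal in Nos2-/- cells is no check of the labels. The 6 macrophage markers were bright, with mean log2 signals from 7.94 for Mertk to 13.90 for Csf1r. T and NK cell, B cell, fibroblast, erythroid and mast cell markers were dimmer than these, with means from 3.43 for Cd3g to 6.2 for Cd3e. The median over all genes was 6.12, so Cd3e was not below it. Some markers of other cells also moved with stimulation. Over all genes, 29.6% were called higher and 28.4% lower in WT, so single calls among a few markers are near that share. The mean over the 7 measured neutrophil markers was 6.63 to 7.07 in untreated WT arrays and 7.54 to 7.69 in stimulated WT arrays. In Nos2-/- arrays this mean was 6.75 to 7.25 before and 7.59 to 7.84 after stimulation. In WT 3 of the 7 were called higher, S100a8 by 3.39, Camp by 0.82 and Mpo by 0.29 on the log2 scale. S100a9 (0.39), Ngp (0.18), Elane (-0.0) and Ltf (-0.07) were not called, so the rise of the mean rests largely on S100a8. Other markers called higher in WT were Cd3e of 4 T and NK cell markers, Dcn of 4 fibroblast markers and Flt3 and Ccr7 of 3 dendritic cell markers, and Cd79b of 3 B cell markers was called lower. Of the macrophage markers Fcgr1 rose by 1.24, and Adgre1 (-0.32), Cd68 (-0.87), Csf1r (-0.36) and Mertk (-0.49) fell. What part these markers have in the results below was not tested. In these bulk samples, fewer cells of a type and less RNA per cell cannot be told apart.

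The first comparison asked how the synthetase genes respond to LPS plus IFNγ in WT cells. Most of them fell. Of the 19 cytosolic genes 15 fell, 3 rose and 1 was not called, and of the 16 mitochondrial genes 11 fell, 1 rose and 4 were not called, by limma at a Benjamini-Hochberg adjusted p under 0.05 over all genes. Over all 18193 genes, 28.4% were called lower and 29.6% higher in this comparison. The share of called-lower genes was thus above the background in both classes, and the share of called-higher genes was below it. The median log2 fold change was -0.70 for cytosolic and -0.66 for mitochondrial genes, against 0.07 for all genes. The range differed more than the median, since cytosolic genes spanned -2.13 to 0.90 and mitochondrial genes -1.65 to 0.21. The mitochondrial probe sets were dimmer, with mean log2 signals from 4.15 (Mars2) to 7.88 (Rars2). Cytosolic means ran from 7.62 (Vars) to 11.08 (Nars). What part the signal level has in the narrower mitochondrial range, or in the pairs of enzymes compared below, was not tested.

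**Figure D1:**
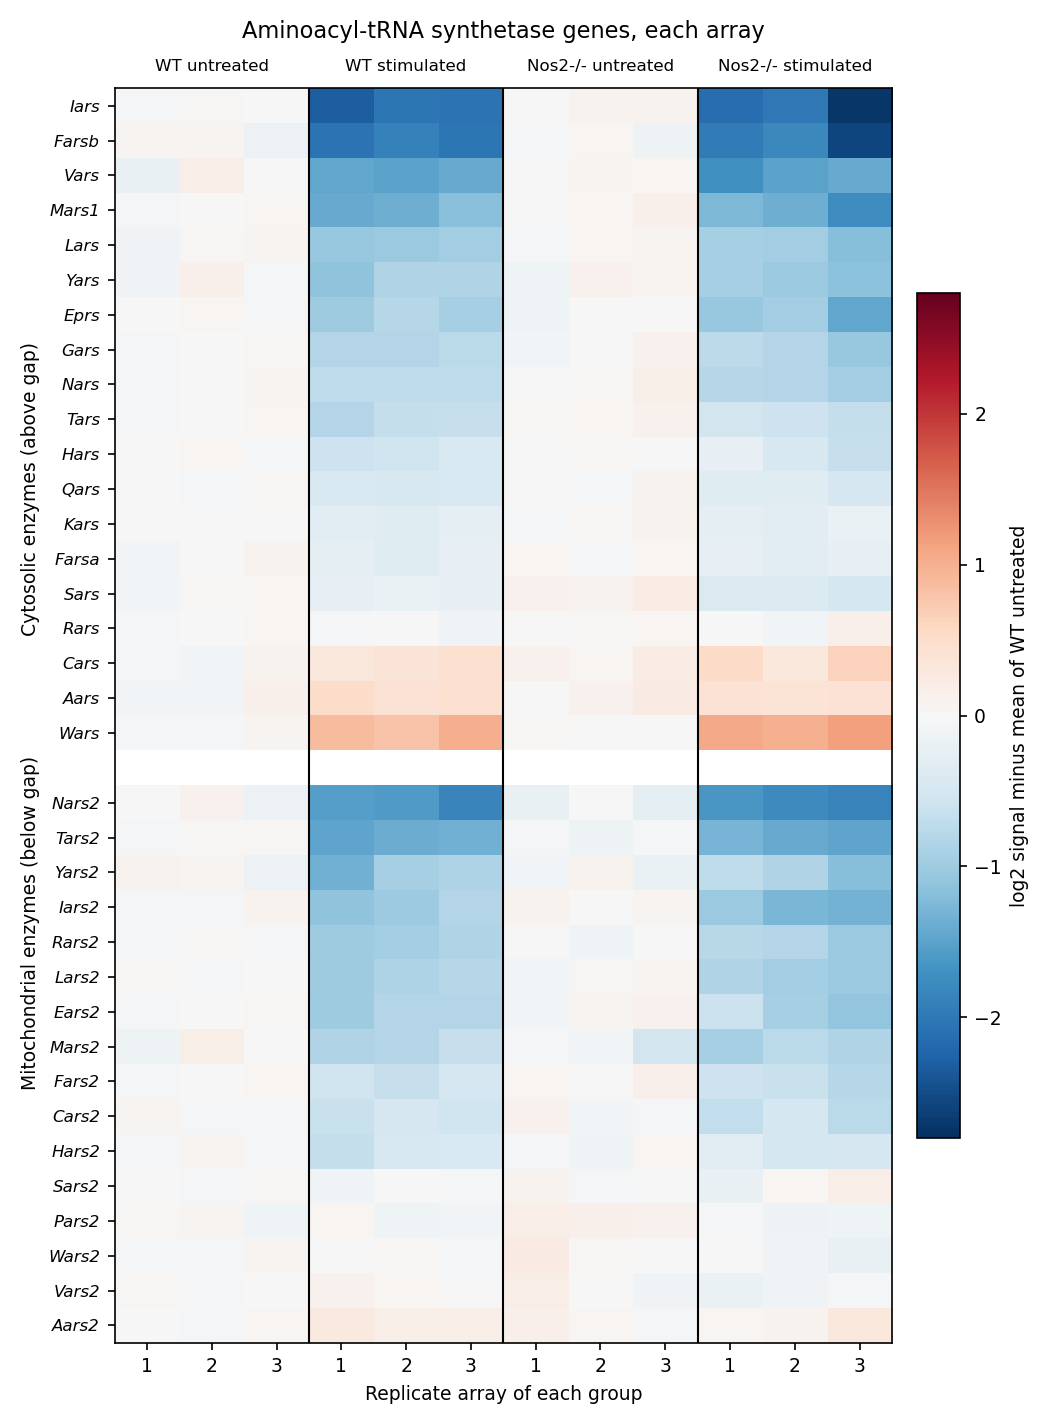
Heat map of the 35 genes (rows, cytosolic above and mitochondrial below the gap, ordered by their WT response) in the 12 arrays (columns, 3 replicates per group). Color is the log2 signal minus the mean of the 3 untreated WT arrays of that gene. Blue columns under both stimulated groups show that most genes of both classes fell, from Iars, which changed by -2.13 in WT, to red rows for Wars, Aars and Cars.

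The cytosolic genes that rose were Wars, Aars and Cars, the tryptophan, alanine and cysteine enzymes. Wars had a log2 signal of 8.19, 8.20 and 8.32 in untreated and 9.13, 9.03 and 9.25 in stimulated WT arrays. Every stimulated array was above every untreated array, and the change was 0.90 ± 0.07 (SE, n = 3 arrays per group), or 1.86-fold, at an adjusted p of 7.11e-08. For Aars the values were 9.49, 9.48 and 9.71 before and 10.07, 9.96 and 10.00 after stimulation, a smaller rise of 0.45 ± 0.08 or 1.37-fold (adjusted p = 0.000209). Cars went from 8.25, 8.21 and 8.38 to 8.59, 8.65 and 8.73, a rise of 0.37 ± 0.09 or 1.29-fold (adjusted p = 0.00231). Neither gene's groups overlapped, but only Wars passed a threshold of 1.5-fold. All 4 probe sets of Wars rose, by 0.75 to 0.90, as did both probe sets of Aars, whereas a dimmer probe set of Cars changed by 0.23 without being called.

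The deepest falls were those of Iars and Farsb. Iars, the isoleucine enzyme of the multisynthetase complex, had log2 signals of 10.27, 10.34 and 10.31 in untreated and 8.01, 8.28 and 8.24 in stimulated WT arrays. It was 4.37-fold lower after stimulation, a change of -2.13 ± 0.14 (adjusted p = 1.21e-08), with no overlap of the groups. Farsb, the β subunit of the cytosolic phenylalanine enzyme, went from 10.67, 10.67 and 10.43 to 8.52, 8.69 and 8.57, a change of -2.0 ± 0.15 or 3.99-fold lower (adjusted p = 4.64e-08). Farsa, the α subunit of the same enzyme, changed by only -0.28 ± 0.07 (adjusted p = 0.0022). The Farsa call was lost under quantile normalization, where the change was -0.15, and in the mean of all its probe sets, where it was -0.05. The subunits of this enzyme thus had unequal changes in transcript signal.

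Vars and Mars1 were next. Vars, the valine enzyme, had signals of 8.15, 8.54 and 8.37 in untreated WT arrays, a wider spread than in the stimulated ones at 6.90, 6.86 and 6.94. It changed by -1.45 ± 0.10, or 2.74-fold lower (adjusted p = 1.12e-08). Mars1, the methionine enzyme, which also charges the initiator tRNA, fell from 9.94, 10.01 and 10.05 to 8.60, 8.63 and 8.83, a change of -1.31 ± 0.11 or 2.49-fold lower (adjusted p = 1.02e-07). Both genes had stimulated arrays well below all untreated ones. Lars (leucine) changed by -1.03, Yars (tyrosine) by -0.94, Eprs (the fused glutamate and proline enzyme) by -0.90, Gars (glycine) by -0.80, Nars (asparagine) by -0.71 and Tars (threonine) by -0.70. Smaller falls were measured for Hars (histidine) at -0.52, Qars (glutamine) at -0.43, Kars (lysine) at -0.30 and Sars (serine) at -0.22. Rars, the arginine enzyme, was the cytosolic gene without a call, with a change of -0.05 and a 95% confidence interval of -0.19 to 0.10.

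**Figure D2:**
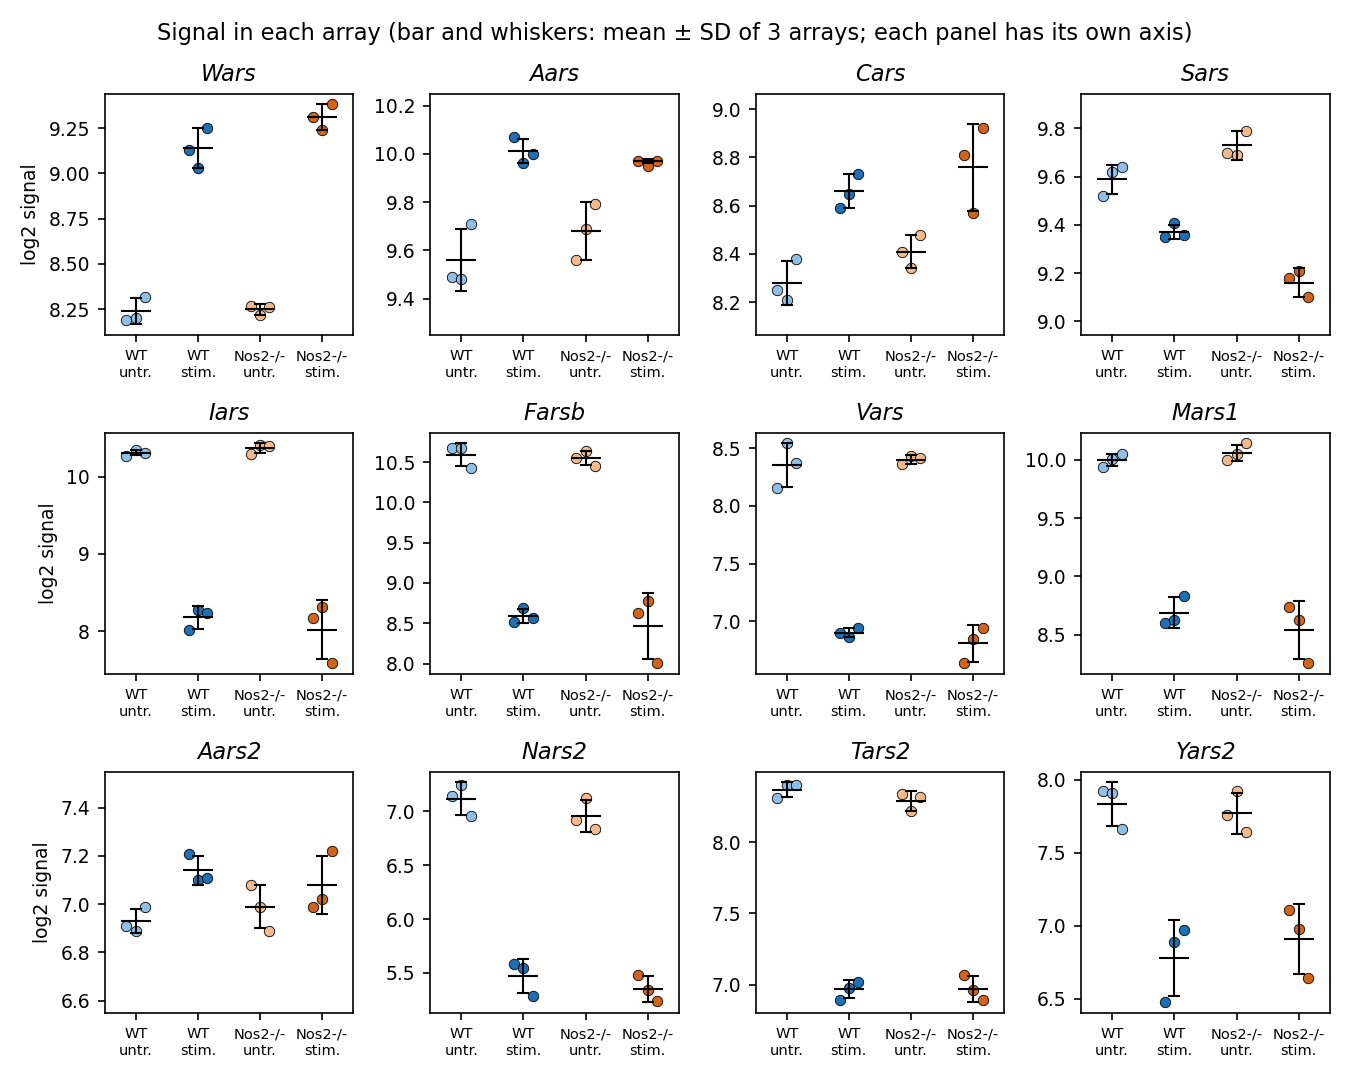
Log2 signal (y axis, a separate scale in each panel) of 12 genes in the 4 groups (x axis), with 1 point per array and a bar with whiskers for the mean ± SD of 3 arrays. Wars, Aars and Cars are higher in stimulated arrays of both genotypes, Iars, Farsb, Vars, Mars1, Nars2, Tars2 and Yars2 are lower, and Sars has its lowest values, 9.10 to 9.21, in stimulated Nos2-/- arrays.

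Promoter sequences are shown for the genes that hold the C/EBP-ATF response element, the motif bound by ATF4, because Aars rose and the others fell. RefSeq windows of GRCm38.p6, from 250 bases before to 50 bases after the transcript start, were used for 27 members, 13 cytosolic and 14 mitochondrial. The 13 include Dars, which was not measured, so 12 are cytosolic genes with a signal. No window was used for Cars, Hars, Lars, Nars, Rars, Vars, Wars, Hars2 or Pars2. Either none was given, or the gene lies on a chromosome whose members were left out of the search. The count over all windows had no such exclusion. The motif TGATGNAA was searched on both strands. It occurred in 5 of the 13 cytosolic genes, 38.5%, and in 0 of the 14 mitochondrial genes. Among all 32851 windows of this length, counted by window and not by gene, 3.97% held it. For each of these genes the 30 bases around 1 match are printed on the strand of the gene, 5′ to 3′, with the match in capitals.
Aars (chr8:111033840-111033869, + strand, match at base 10 of the transcript): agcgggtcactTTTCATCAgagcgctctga
Gars (chr6:55037960-55037989, + strand, match 30 bases upstream): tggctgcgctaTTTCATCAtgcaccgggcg
Iars (chr13:49682126-49682155, + strand, match at base 8 of the transcript): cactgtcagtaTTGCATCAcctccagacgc
Tars (chr15:11399655-11399684, - strand, match 15 bases upstream): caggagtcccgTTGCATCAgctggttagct
Yars (chr4:129189895-129189924, + strand, match at base 4 of the transcript): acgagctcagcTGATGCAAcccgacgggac

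The Aars transcript rose, whereas those of Gars, Iars, Tars and Yars fell by 0.80, 2.13, 0.70 and 0.94 on the log2 scale. The capitals in the Yars window are the motif on the strand of the gene, and those in the other windows are the motif on the opposite strand. In the same windows the core GAAANNGAA of the interferon-stimulated response element was found in Qars, in no mitochondrial gene and in 8.56% of all windows.
These matches describe the letters of a window and are not evidence of binding. No window was given for Wars or Cars, the other cytosolic genes that rose.

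Enzymes of the multisynthetase complex fell together with its scaffolds in WT, where 28.4% of all genes were called lower and 29.6% higher. Of 7 measured complex enzymes, 6 fell (Iars, Mars1, Lars, Eprs, Qars and Kars) and Rars was not called, with a median log2 fold change of -0.90. All 3 scaffold genes fell, Eef1e1 by 1.44, Aimp2 by 0.52 and Aimp1 by 0.40 on the log2 scale. Among the 12 cytosolic genes outside the complex 9 fell and 3 rose, with a median of -0.61. Class I and class II enzymes both fell in the main. Class I had 14 lower, 2 higher and 3 without a call of 19 genes (median -0.89), and class II had 12 lower, 2 higher and 2 without a call of 16 (median -0.52). Gars and Kars, which serve both compartments, both fell.

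Among mitochondrial enzymes Nars2 and Tars2, for asparagine and threonine, fell most. Nars2 had log2 signals of 7.14, 7.25 and 6.96 in untreated and 5.58, 5.54 and 5.28 in stimulated WT arrays. It changed by -1.65 ± 0.11, or 3.13-fold lower (adjusted p = 8.37e-09), and the groups lay far apart. Tars2 went from 8.31, 8.40 and 8.40 to 6.89, 6.98 and 7.02, a change of -1.40 ± 0.07 or 2.65-fold lower with the lowest adjusted p of all members, 4.59e-10. Yars2 (tyrosine) fell from 7.92, 7.91 and 7.66 to 6.48, 6.89 and 6.97, a change of -1.05 ± 0.14 or 2.08-fold lower (adjusted p = 1.69e-05). For Iars2 (isoleucine) the signals were 8.06, 8.06 and 8.19 before and 6.97, 7.08 and 7.27 after stimulation, a change of -1.0 ± 0.09 (adjusted p = 3.38e-07). In each of these genes all stimulated arrays lay below all untreated ones.

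Other mitochondrial genes fell by less. Rars2 (arginine) changed by -0.93, Lars2 (leucine) by -0.89, Ears2 (glutamate) by -0.88, Mars2 (methionine) by -0.77, Fars2 (phenylalanine) by -0.56, Cars2 (cysteine) by -0.55 and Hars2 (histidine) by -0.51. The Mars2 probe set was dim, with a mean log2 signal of 4.15 against a median of 6.12 over all genes. Aars2, the mitochondrial alanine enzyme, was the single mitochondrial gene that rose. Its signals were 6.91, 6.89 and 6.99 before and 7.21, 7.10 and 7.11 after stimulation, a change of 0.21 ± 0.08 or 1.16-fold (adjusted p = 0.0306). This call was lost when WT untreated replicate 1, WT untreated replicate 2 or WT stimulated replicate 1 was left out, with changes of 0.20, 0.19 and 0.17. Sars2 (serine, -0.05), Pars2 (proline, -0.05), Wars2 (tryptophan, -0.01) and Vars2 (valine, 0.06) were not called, and their 95% confidence intervals lay between -0.24 and 0.22. For Vars2 a dimmer probe set was called lower at -0.57, so its probe sets disagreed.

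**Figure D3:**
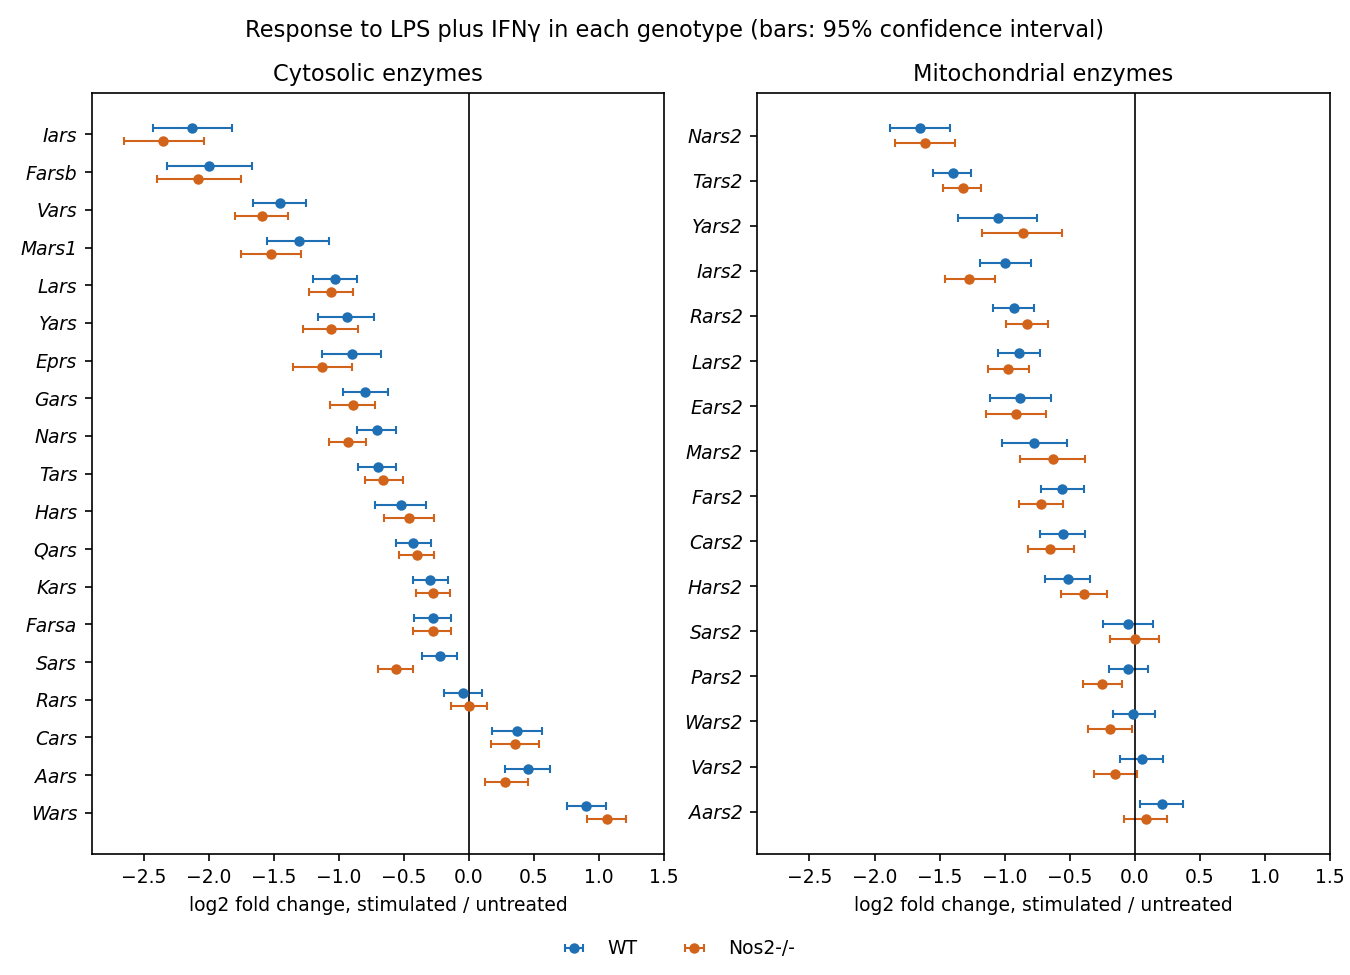
Log2 fold change of stimulated over untreated cells (x axis) for 19 cytosolic (left) and 16 mitochondrial genes (right), with WT in blue and Nos2-/- in orange and bars for 95% confidence intervals from limma (n = 3 arrays per group). The 2 genotypes lie close together for most genes, Wars is highest at 0.90 and 1.06, and Sars has the widest gap at -0.22 and -0.56.

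The cytosolic and mitochondrial enzymes of the same amino acid often differed in their response. For 13 amino acids with a separate enzyme in each compartment, the difference between both responses was computed from the within-array difference of the 2 log2 signals, with a 95% interval from a linear model of all 12 arrays that was not adjusted for the number of pairs. In WT the interval excluded 0 in 9 of 13 pairs, with the cytosolic gene higher in 6 and lower in 3. The cytosolic gene was less reduced or raised for asparagine (difference 0.94, interval 0.62 to 1.25), cysteine (0.93, 0.58 to 1.27), tryptophan (0.90, 0.67 to 1.14), arginine (0.88, 0.62 to 1.14) and threonine (0.70, 0.62 to 0.79). The sixth, alanine, had a difference of 0.24 with a lower bound that rounds to 0.00. The opposite was seen for valine (-1.51, -1.81 to -1.21), isoleucine (-1.13, -1.48 to -0.78) and methionine (-0.55, -0.97 to -0.12), where the cytosolic gene fell further. Histidine, leucine, serine and tyrosine enzymes had intervals that held 0, from -0.43 to 0.39 at the widest. Single amino acids thus differed between compartments in both directions. The medians of the 2 classes in WT, -0.70 and -0.66, rest on 1 probe set per gene. With all probe sets of a gene averaged they were -0.70 and -0.39. The valine pair rests on the Vars2 probe set with the highest signal, and with the change of -0.57 in the other Vars2 probe set the genes would lie closer.

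**Figure D4:**
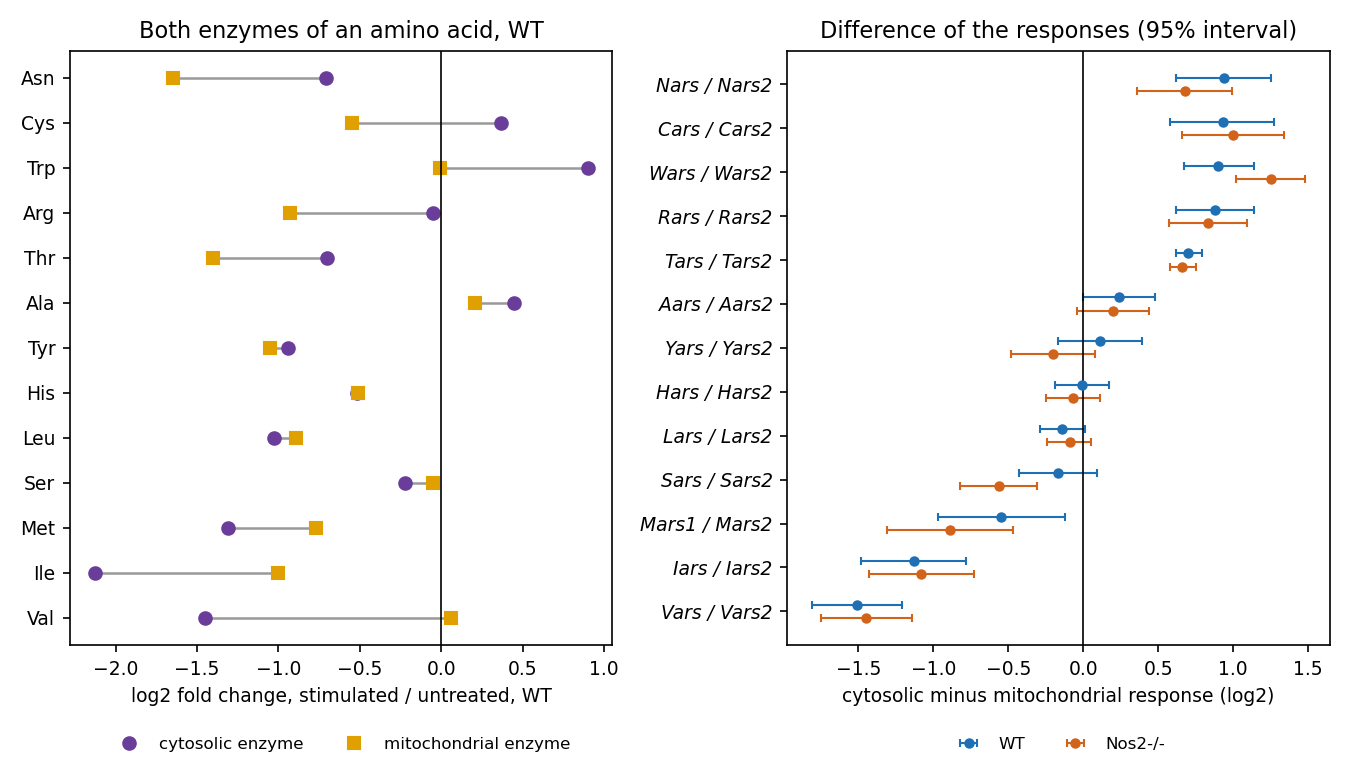
Left, log2 fold change in WT (x axis) of the cytosolic (circles) and mitochondrial (squares) enzyme of 13 amino acids (y axis). Right, cytosolic minus mitochondrial response in WT (blue) and Nos2-/- (orange) with 95% intervals over 12 arrays. The differences run from -1.51 for Vars and Vars2 to 0.94 for Nars and Nars2 in WT, and 8 of 13 pairs have intervals on the same side of 0 in both genotypes.

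Other genes of tRNA charging and protein synthesis were taken from lists. Their counts in WT stand against 28.4% of all genes called lower and 29.6% called higher. Among 11 measured partners in mitochondrial translation 8 fell, 1 rose and 2 were not called, with a median of -0.46. The 3 subunits of the amidotransferase that makes mitochondrial glutaminyl-tRNA fell, Qrsl1 by 1.44, Gatc by 1.14 and Gatb by 0.67 on the log2 scale. This pathway stands in for a mitochondrial glutamine enzyme, which does not exist as a separate gene. Mtif3, a mitochondrial initiation factor, was the gene of this list that rose, by 0.27. All 4 measured cytosolic elongation factors fell, Eef1d by 1.40, Eef2 by 1.04, Eef1b2 by 0.89 and Eef1a1 by 0.33. Of 7 synthetase-like and editing proteins 5 fell, among them Pstk (-1.62) and Sepsecs (-1.10) of the selenocysteine pathway and the synthetase-like gene Tarsl2 (-1.45).

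Genes of the integrated stress response, whose factor ATF4 is known to activate many cytosolic synthetase genes, mostly rose. Of 16 listed genes 11 rose and 4 fell in WT, with a median of 0.89, against 29.6% and 28.4% of all genes called higher and lower. Atf4 changed by 0.82, Ddit3, which encodes CHOP, by 1.39, Trib3 by 1.37 and the serine synthesis gene Psat1 by 1.59. Asns, the asparagine synthetase and a classical ATF4 target, fell by 0.71 and Shmt2, the mitochondrial serine hydroxymethyltransferase, by 2.58 on the log2 scale. Of the 19 cytosolic synthetase genes 3 rose, and whether ATF4 acts on any of them in these cells was not tested. Among the kinases that start this response, Eif2ak2 rose by 1.19 and Eif2ak1 by 0.25, whereas Eif2ak4, the sensor of uncharged tRNA known as GCN2, fell by 1.10 and Eif2ak3 by 1.45.

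The second comparison gave the response of Nos2-/- cells, which shares no arrays with that of WT. It called 15 cytosolic genes lower, 3 higher and 1 not, and 12 mitochondrial genes lower, 0 higher and 4 not, against 28.2% of all genes called lower and 26.3% called higher. At an unadjusted p under 0.05 there was also no mitochondrial gene higher. The median was -0.66 for cytosolic and -0.68 for mitochondrial genes, against 0.05 for all genes. The same 3 cytosolic genes were higher and the same 15 lower in both genotypes, and 11 mitochondrial genes were lower in both. The share of all genes called the same way in both genotypes is not given here, so these shared counts have no matching background. Aars2 was called in WT and not in Nos2-/- cells, and Pars2 was called in Nos2-/- cells (-0.25) and not in WT. No member was called in opposite directions.

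The genes described for WT had the following array values in Nos2-/- cells. Wars had signals of 8.27, 8.22 and 8.26 in untreated and 9.31, 9.24 and 9.38 in stimulated Nos2-/- arrays, a rise of 1.06 ± 0.07 or 2.08-fold (adjusted p = 1.13e-08). Aars went from 9.56, 9.69 and 9.79 to 9.97, 9.95 and 9.97 (0.28 ± 0.08, adjusted p = 0.00687) and Cars from 8.41, 8.34 and 8.48 to 8.81, 8.57 and 8.92 (0.35 ± 0.09, adjusted p = 0.00336). All 3 genes again had stimulated arrays above every untreated array. Iars fell from 10.30, 10.41 and 10.40 to 8.17, 8.31 and 7.59, a change of -2.35 ± 0.14 or 5.1-fold lower (adjusted p = 3.87e-09). Farsb fell from 10.55, 10.64 and 10.45 to 8.63, 8.78 and 8.01, a change of -2.08 ± 0.15 (adjusted p = 2.87e-08). In both genes stimulated replicate 3 was the lowest array by a wide margin. Mars1 showed the same array at its lowest, with signals of 10.00, 10.05 and 10.14 before and 8.74, 8.63 and 8.26 after stimulation (-1.52 ± 0.11). Vars did not, with 8.36, 8.43 and 8.41 before and 6.64, 6.85 and 6.94 after stimulation (-1.59 ± 0.10).

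Among mitochondrial genes Nars2 and Tars2 again fell most. Nars2 had signals of 6.92, 7.13 and 6.84 in untreated and 5.48, 5.34 and 5.24 in stimulated Nos2-/- arrays (-1.61 ± 0.11, adjusted p = 9.51e-09). Tars2 went from 8.34, 8.22 and 8.32 to 7.07, 6.96 and 6.89 (-1.32 ± 0.07, adjusted p = 7.41e-10), Iars2 from 8.19, 8.12 and 8.17 to 7.07, 6.83 and 6.78 (-1.27 ± 0.09, adjusted p = 2.45e-08) and Yars2 from 7.76, 7.92 and 7.64 to 7.11, 6.98 and 6.64 (-0.86 ± 0.14, adjusted p = 0.00011). None of these groups overlapped. Aars2 had 7.08, 6.99 and 6.89 in untreated and 6.99, 7.02 and 7.22 in stimulated arrays, groups that overlapped (0.09 ± 0.08, adjusted p = 0.352). In the pairs of 1 amino acid the interval excluded 0 in 9 of 13, with the cytosolic gene higher in 5 and lower in 4. The pairs that left or joined were alanine, with an interval of -0.04 to 0.44, and serine, with a difference of -0.56 (-0.82 to -0.31).

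The remaining comparisons asked whether the enzymes differ between the genotypes. None of the 35 genes was called between stimulated Nos2-/- and stimulated WT cells, where 2.94% of all genes were called. In the test of whether both genotypes responded differently 0 of 35 were called, against 0.978% of all genes, and between untreated cells 0 of 35, against 0.0110%. With so few genes called in all, a count of 0 is near the background. The ordinary linear model without moderation also called 0 members in each of these comparisons. After stimulation, members differed by a median of -0.05 (cytosolic) and -0.06 (mitochondrial) on the log2 scale, and the 95% confidence intervals of single genes lay between -0.48 and 0.44. Differences beyond those bounds are outside every interval.

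At an unadjusted p under 0.05, 5 of 35 genes differed between the stimulated genotypes, against 15.1% of all genes. Wars was higher in Nos2-/- cells by 0.17, and Eprs (-0.26), Sars (-0.21), Iars2 (-0.21) and Vars2 (-0.17) were lower. In untreated cells 0 of 35 passed that level, against 4.0% of all genes, and in the difference between the responses 2 of 35 did, Sars (-0.34) and Nars (-0.22), against 10.0%. Arrays of the stimulated genotypes did not overlap for 3 members, Sars, Nars and Vars2, all lower in Nos2-/-, against 17.1% of all genes, and those of the untreated genotypes for 2 members, Sars and Pars2, both higher in Nos2-/-, against 12.6%. These shares were at or below the background.

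Sars, the cytosolic serine enzyme, was the member nearest to a call, and it was singled out after its values were seen. It had log2 signals of 9.52, 9.62 and 9.64 in untreated and 9.35, 9.41 and 9.36 in stimulated WT arrays. In Nos2-/- cells the signals were 9.70, 9.69 and 9.79 before and 9.18, 9.21 and 9.10 after stimulation. So the Nos2-/- arrays were above all WT arrays before and below all of them after stimulation. The response was -0.22 ± 0.06 in WT and -0.56 ± 0.06 in Nos2-/- cells, and the difference of -0.34 ± 0.09 (95% confidence interval -0.53 to -0.15) had an adjusted p of 0.106. For the stimulated genotypes the adjusted p was 0.104. Over all alternatives the adjusted p ran from 0.032 to 0.283 for the difference and from 0.033 to 0.332 for the stimulated genotypes. Its other probe set moved by -0.40 in WT and -0.74 in Nos2-/- cells.

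**Figure D5:**
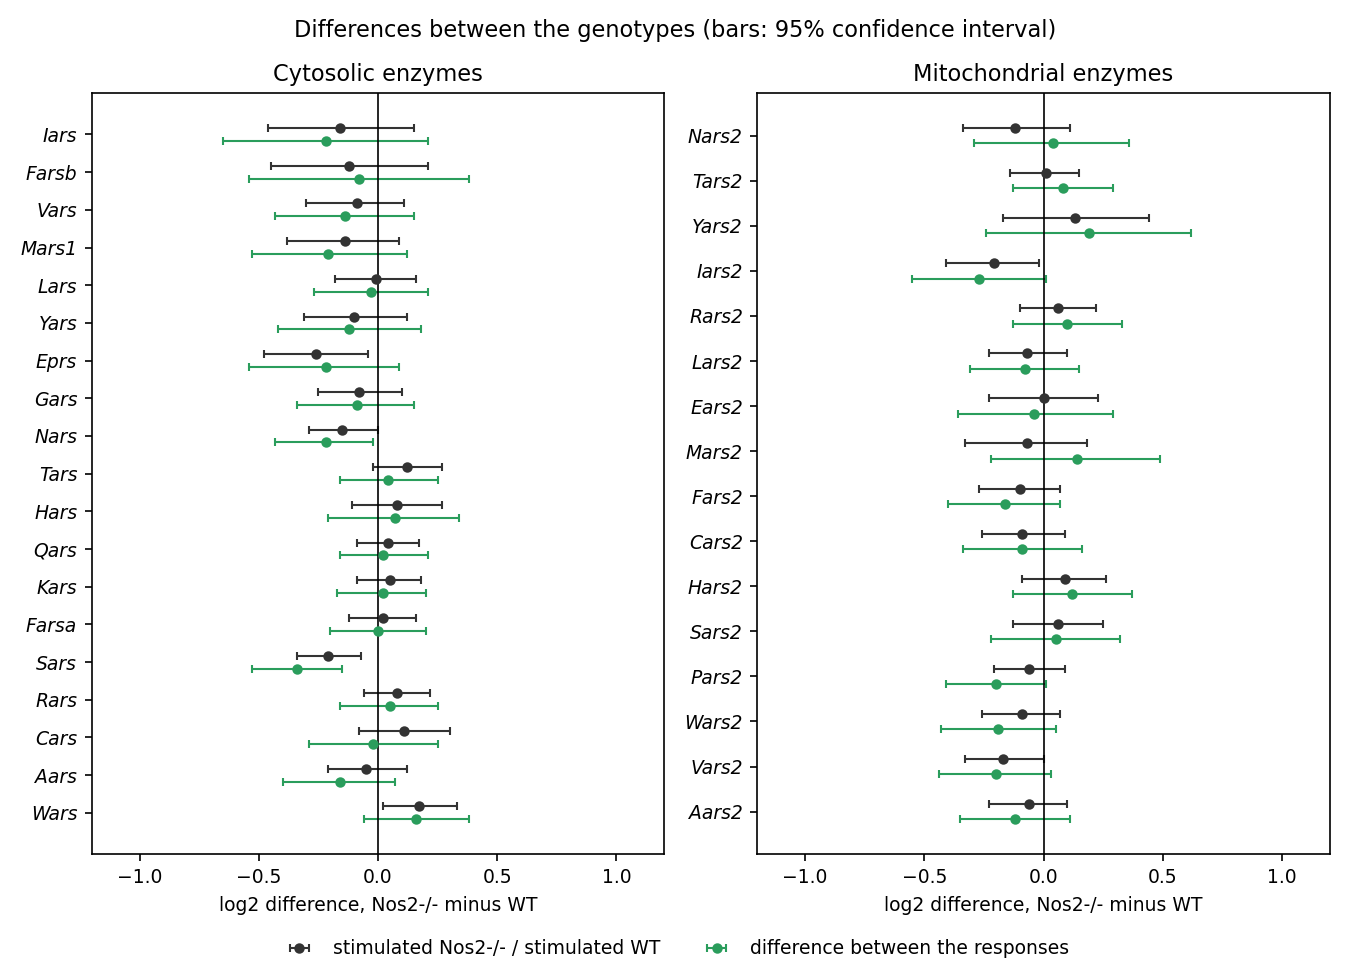
Log2 difference (x axis) between stimulated Nos2-/- and stimulated WT cells (black) and between the responses of both genotypes (green) for 19 cytosolic (left) and 16 mitochondrial genes (right), ordered by the WT response, with 95% confidence intervals from limma. Most intervals hold 0, and the estimates after stimulation run from -0.26 for Eprs to 0.17 for Wars.

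Nos2-/- stimulated replicate 3 touched several of these values. Over the 26 members that fell in WT it was the lowest array of its group in 21, with a mean deviation of -0.14 from the group means, and WT stimulated replicate 1 was lowest in 19, with a mean deviation of -0.07. Without the former array the genotype difference after stimulation changed from -0.26 to -0.12 for Eprs, from -0.16 to 0.06 for Iars and from -0.12 to 0.11 for Farsb. The responses of Nos2-/- cells were still called, at -0.98 for Eprs, -2.13 for Iars and -1.84 for Farsb. Counts of called cytosolic and mitochondrial genes were as given above without this array.

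In the related lists, the genotypes differed at a few stress genes. Atf3 changed by 1.48 in WT and 0.89 in Nos2-/- cells, and the difference of -0.59 passed the test (adjusted p = 0.0431). After stimulation Atf3 (-0.60), Sesn2 (-0.47) and Ppp1r15a (-0.66) were lower in Nos2-/- than in WT cells, 3 of the 16 integrated stress response genes against 2.94% of all genes. Atf4 differed by -0.22 after stimulation and was not called (adjusted p = 0.122). No scaffold, elongation factor, mitochondrial partner or synthetase-like gene was called between genotypes.

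All probe sets of the members were also examined, a choice made after seeing the data. The 35 genes have 72 single-gene probe sets, and 23 genes have more than 1. In WT 45 probe sets were called lower and 9 higher, and in Nos2-/- cells 47 lower and 8 higher. Calls of opposite direction within a gene occurred in Farsa in WT, where another probe set rose by 0.32, and in Cars2 in Nos2-/- cells, where another rose by 0.34 against -0.65. None of the 72 was called between genotypes or in the difference between the responses. The shares called among all 34945 single-gene probe sets are not given here, so these counts have no matching background. The probe sets used for Farsb, Wars and Yars2 can hybridize to related sequences, as their suffix _x_at tells. The other probe sets of these genes were called in the same direction in both genotypes, except a dim probe set of Farsb. That probe set changed by -0.14 in WT and was not called. The probe sets used for Iars and Aars end in _s_at. An alternative that left out both suffixes kept the calls of Iars and Aars in both genotypes.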

How the data were processed

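The authors ran RMA (background correction, quantile normalization and summarization of probes) in Partek on the array images and deposited the resulting log2 values. The versions are not given in the sources used here. From 45101 probe sets, 64 controls were removed, and of the other 45037, 34945 name 1 gene, 932 several and 9160 none. The first kind was used, with the brightest probe set per gene over all arrays and no filter on dim probe sets. Each of the 12 arrays was mapped by its title.

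A linear model with 1 mean for each group was fitted to all 18193 genes in limma (version 3.58.1, R version 4.3.3), and moderated two-sided tests were adjusted over all genes by Benjamini-Hochberg. The threshold was 0.05, whatever the size of the change. The thresholds in the methods (1.5-fold, false discovery rate under 0.5) were an alternative. The model was tested on simulated data. Tables and figures were made with Python 3.11.15 and matplotlib 3.10.9. Replicates are described as biological, and p-values measure the spread between these arrays. The members and lists were chosen with earlier results of these data known, so no p was computed over a list. Array values were given for the 4 largest rises and falls in WT in each class and for any member called between genotypes. The gene Dars has no probe set of its own in the annotation. Promoter windows are from RefSeq. A further motif search and a further promoter match are not reported here. Alternatives covered samples in the model, a replicate block, moderation, scaling, filtering, probe sets, thresholds, class membership and leaving out each array.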

Additional observations from a re-analysis of the deposited data

Results flagged for a closer look

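Nos2 and Atf3 responded differently in the 2 genotypes by the test of the difference itself. The response of Nos2, the targeted gene, was 4.22 in WT and 2.39 in Nos2-/- cells on the log2 scale, a difference of -1.84 (limma adjusted p = 3.73e-05). That of Atf3, a stress-induced transcription factor, was 1.48 and 0.89, a difference of -0.59 (adjusted p = 0.0431). No aminoacyl-tRNA synthetase gene met this condition.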

How the results depend on the processing

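Under 21 alternatives to each response, no median changed direction, nor did any of the 12 members with the largest called changes. Members near 0 changed sign, Pars2, Sars2, Vars2 and Wars2 in WT and Rars and Sars2 in Nos2-/- cells. Of these Vars2 ran from -0.26 to 0.22 in WT and was called once in each direction. Under the thresholds of the methods and under an adjusted p below 0.05 with at least 1.5-fold, only Wars stayed among the cytosolic rises, 1 in each genotype, and the mitochondrial rise in WT went to 0. The falls in WT went from 15 to 10 cytosolic and from 11 to 8 mitochondrial genes. The shares of all genes called under the alternatives are not given here, so the counts under them have no matching background. Quantile normalization gave 2 mitochondrial rises in WT (Aars2 and Vars2) and 1 in Nos2-/- cells (Aars2, 0.30), and moved the mitochondrial median in WT to -0.50. Leaving out each array gave 0 to 1 mitochondrial rises in WT. When the probe sets of each gene were averaged, the mitochondrial median was -0.39 in WT and -0.38 in Nos2-/- cells. Without Wars the cytosolic median in Nos2-/- cells was -0.77. An intensity trend in limma and leaving out genes below the median signal each called 1 cytosolic gene, Sars, lower between the stimulated genotypes and in the difference between the responses. No clear pairing by replicate number was seen, since 2 of 18 same-numbered pairs had a correlation of deviations over 0.1 and 5 of 12 arrays correlated best with their own number. Whether replicates of the same number were prepared together is not given in the sources used here. With a replicate block the calls were 15 cytosolic and 11 mitochondrial genes lower in WT, and no count moved. The cause of the shifts under quantile normalization and of the added Sars calls was not tested. The median of all genes ran from -0.15 to 0.12 over the alternatives in WT and was lowest without dim genes.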
